A study of Rattus norvegicus with 69 samples.

Results

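The AMPA and kainate receptor subunit genes were examined in rat hippocampal CA1 after sleep deprivation, across every probe set (a group of short probes that gives 1 signal) that the array's annotation assigned to Gria1, Gria2, Gria3, Gria4, Grik1, Grik2, Grik3, Grik4 or Grik5. This rule took in 9 of the 4736 genes with a probe set of their own and gave 16 of the 8740 probe sets tested, 10 for the 4 AMPA receptor genes and 6 for the 5 kainate receptor genes, and each was kept separate. The rule used gene names and no measured value.

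CA1 tissue, dissected away from the dentate gyrus and CA3, was taken from 69 male Fisher 344 rats, 3 to 5 months old, with 1 array for each animal. Sleep-deprived (SD) rats lived on small platforms above water for 24 h (24SD, 8 animals in cohort 2 and 8 in cohort 1) or 72 h (72SD, 12 in cohort 2 and 8 in cohort 1). Rats of the NES groups, stressed by an unfamiliar environment, were kept in the same kind of chamber, with a grid laid over the platforms that let them sleep, for 24 h (24NES, 10 animals) or 72 h (72NES, 6 animals), all in cohort 1. Home cage (HC) animals stayed in their cages (12 in cohort 2, 5 in cohort 1). The SD and HC animals of cohort 1 had been trained on an active avoidance task before SD, so training and cohort cannot be told apart in the HC and SD arrays. The paper does not name NES animals as trained, so training may also differ between NES animals and the HC and SD animals of cohort 1. SD animals shared a chamber in pairs that the labels do not identify, and the tests treat every animal as independent. SD was compared with HC over 53 arrays with cohort in the model. NES was compared with HC over 21 arrays of cohort 1, so the SD and NES changes in cohort 1 rest on the same 5 HC arrays.

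AMPA and kainate receptors are ion channels that open when glutamate binds, and each channel is an assembly of several subunits. In CA1 pyramidal neurons AMPA receptors built mainly of the Gria1, Gria2 and Gria3 products carry most fast excitatory transmission, and the Gria2 subunit in its edited form keeps the channel nearly impermeable to calcium. Grik1, Grik2 and Grik3 encode kainate receptor subunits that can form channels on their own, whereas Grik4 and Grik5 encode high-affinity subunits that need one of these as a partner. In rat hippocampus Grik4 transcript is known to be richest in CA3 and the dentate gyrus.

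Array medians lay between 404.15 and 487.7 signal units. The GAPDH 3′ to 5′ ratio, a check on RNA length, lay between 0.917 and 1.26. Among pyramidal neuron markers, mean log2 signal over the 69 arrays was 14.68 for Nrgn (L09119_g_at) and 10.18 for Camk2a (M16960_s_at), and the Slc17a7 probe set rc_AI144756_at was low at 4.38. Summed signal of the choroid plexus markers was 54024 in 24SD animal 32 of cohort 2 and at most 4329.8 in any other array. The subunit probe sets ranged from the 33.5th percentile of mean signal (Grik3) to the 91.6th (Gria2, M38061_at). The Gria4, Grik1 and Grik3 probe sets and the Grik4 probe set X59996mRNA_s_at were in the lower 50% of the array, and none of the 16 had a zero.

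Against HC, no AMPA or kainate receptor probe set passed the threshold of adjusted p under 0.05 after either duration of SD. Of the 16, 0 passed for 24SD (0.206% of all probe sets did), 0 for 72SD (0.0229%) and 0 in the F-test over both durations (0.114%). At an unadjusted p under 0.05 the counts were 3 of 16 for 24SD, where 14.8% of all probe sets met it, 2 of 16 for 72SD (7.16%) and 1 of 16 in the F-test (10.3%). Changes ran from -0.27 to 0.29 on the log2 scale for 24SD and from -0.22 to 0.25 for 72SD. The median over the 16 probe sets was 0.0287 for 24SD, against -0.03 over all probe sets, and 0.0154 for 72SD, against -0.0132. The 95% interval lay inside ±0.5 log2 units for 14 of 16 probe sets at 24 h and 15 of 16 at 72 h. Between the durations, 0 of 16 probe sets passed for 72SD against 24SD, adjusted (0% of all) or unadjusted (4.11% of all). In bulk tissue, fewer cells of a type and less RNA per cell cannot be told apart.

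**Figure D1:**
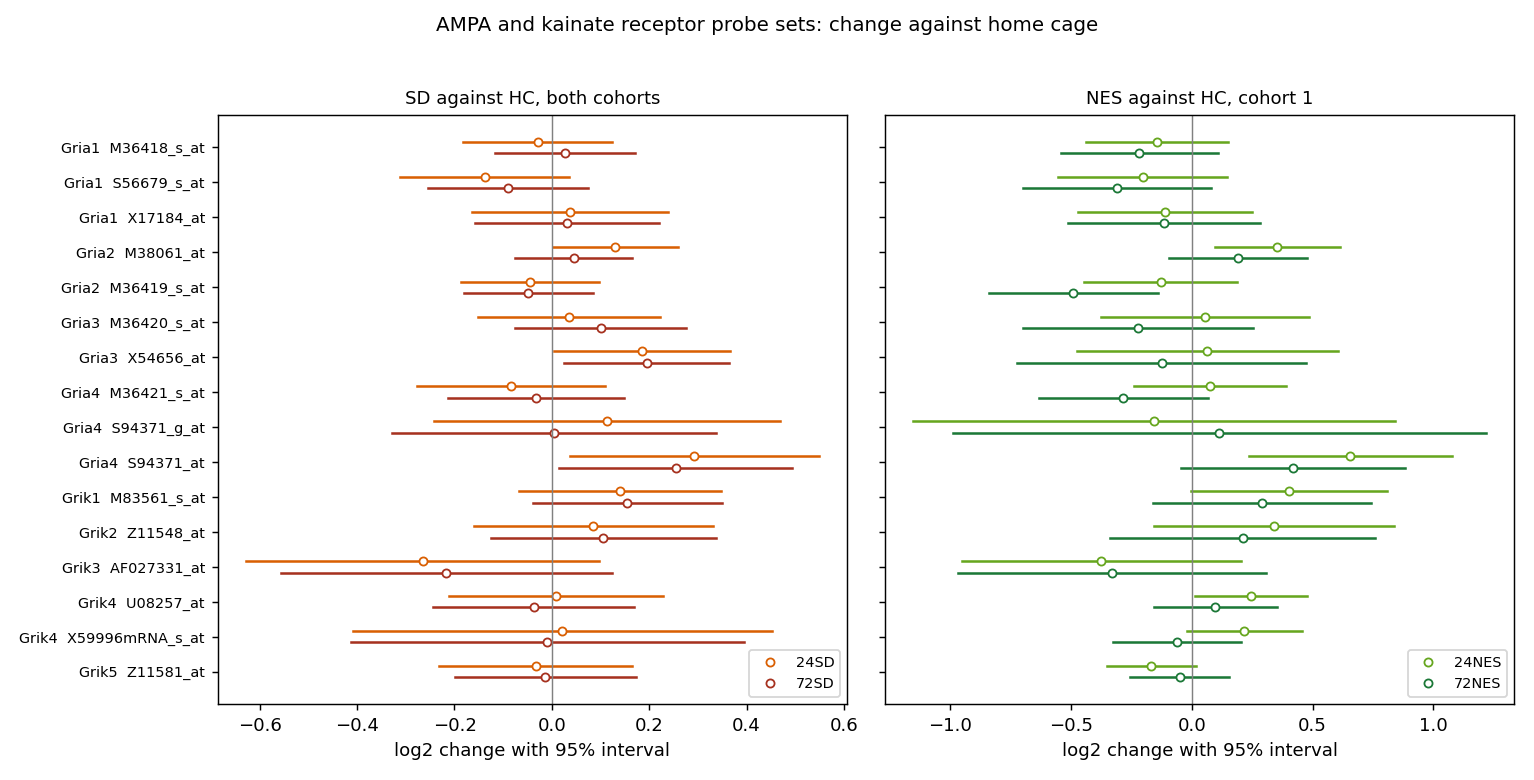
Log2 change against HC, with its 95% interval, for each of the 16 probe sets after 24 h and 72 h of SD (left, both cohorts) and of NES (right, cohort 1); an open circle marks an adjusted p of 0.05 or more. Every circle is open, and the NES intervals are wider than the SD intervals except for Grik4 X59996mRNA_s_at and for Grik5 at 24 h.

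Gria1, a subunit whose phosphorylation and insertion accompany long-term potentiation, had 3 probe sets. For the brightest, M36418_s_at, signal (lowest, median and highest array) was 3523.8, 4286.7 and 5439.1 in 24SD, 3111.5, 4523.2 and 5798.7 in 72SD and 2834.6, 4229 and 5306.5 in HC animals of cohort 2. In cohort 1 it was 3650.6, 4659.4 and 5371.2 in 24SD, 4123.3, 4926 and 5675.2 in 72SD, and between 4912.7 and 5456.1 in the 5 HC animals. The groups overlapped in both cohorts, and the log2 change was -0.03 ± 0.08 (SE) for 24SD and 0.03 ± 0.07 for 72SD. The intervals for this probe set reached no further than -0.18 and 0.17. The log2 changes of S56679_s_at were -0.14 ± 0.09 for 24SD and -0.09 ± 0.08 for 72SD, and those of X17184_at were 0.04 ± 0.10 and 0.03 ± 0.09. Within groups the 3 Gria1 probe sets varied together over the 69 arrays (Pearson r of 0.705, 0.553 and 0.4 for signals less their group-by-cohort mean, across arrays that share scaling and RNA quality).

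Gria2 had 2 probe sets that gave opposite directions in cohort 1. In cohort 2, M38061_at signal was 5245, 6247.9 and 6990 (lowest, median, highest) in 24SD, 4618.1, 6091 and 6893.4 in 72SD and 5107.1, 6322.5 and 7372.1 in HC animals, which overlapped throughout. In cohort 1 it was 4739.1, 5993.8 and 7289.1 in 24SD animals, 4604.9, 5703.8 and 6459.4 in 72SD animals, and 4311.4, 4434.9, 4447.5, 4454.3 and 4669.9 in the 5 HC animals. All 8 24SD animals of cohort 1 were above all 5 HC animals, a separation seen in 0.938% of all probe sets, while the 72SD animals overlapped HC. The log2 change for 24SD was -0.02 within cohort 2 and 0.40 ± 0.11 within cohort 1 (adjusted p = 0.141), where that for 72SD was 0.30 ± 0.11 (adjusted p = 0.458). Over both cohorts the 24SD change was 0.13 ± 0.06, with an adjusted p of 0.329 and an unadjusted p of 0.0466 that passed 0.05 only with all 5 HC arrays of cohort 1 present (0.0738 to 0.0926 with any of them left out).

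For the other Gria2 probe set, M36419_s_at, cohort 1 signal was 3018.4, 3285.9 and 4155.9 in 24SD, 2866.2, 3230.2 and 4524.4 in 72SD, and 3647.8, 3697.9, 3884.6, 4129.7 and 4870.6 in HC animals. Here 7 of 8 24SD and 7 of 8 72SD animals were below the HC mean, and the groups overlapped. Within cohort 1 its log2 change was -0.26 ± 0.11 for 24SD (adjusted p = 0.421) and -0.25 ± 0.11 for 72SD (adjusted p = 0.639). Within each array, the log2 difference of M38061_at less M36419_s_at averaged 0.15 ± 0.17 (SD, n = 5) in HC animals of cohort 1 and between 0.57 and 0.83 in each of the other 7 groups. The 5 HC values ran from -0.13 to 0.28, and a few arrays of the other groups lay among them. The difference was computed after the values were seen and has no test. Within groups the 2 probe sets hardly varied together (Pearson r of 0.126 over 69 arrays).

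**Figure D2:**
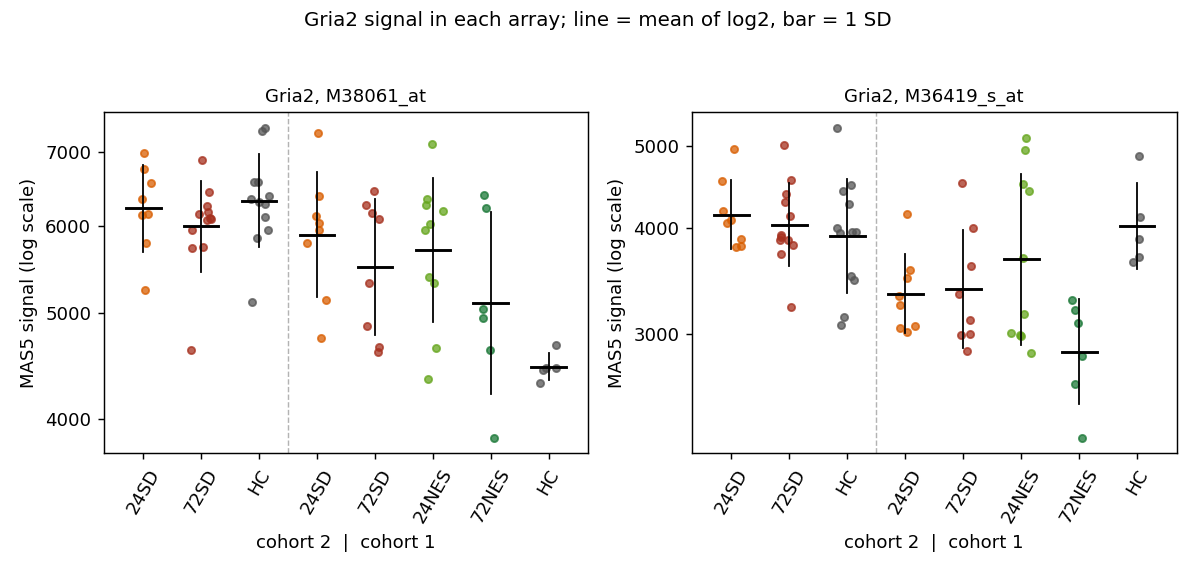
MAS5 signal of the 2 Gria2 probe sets in each of 69 animals (log scale), by group, with cohort 2 on the left of each panel and cohort 1 on the right; lines are means of log2 signal and bars 1 SD. In M38061_at the 5 HC animals of cohort 1 lie between 4311.4 and 4669.9, below the other group means, and in M36419_s_at their mean is above the means of the SD and NES animals of cohort 1.

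The SD by cohort interaction tested whether SD changes differed between cohorts. Of the 16 probe sets, 0 passed at adjusted p under 0.05 (0.0343% of all did) and 3 met an unadjusted p under 0.05 (6.76% of all). These were both Gria2 probe sets and Grik1, M83561_s_at (adjusted p of 0.236 for M38061_at, 0.708 for M36419_s_at and 0.72 for M83561_s_at). For M38061_at the SD change in cohort 2 less that in cohort 1 was -0.42 ± 0.12 at 24 h and -0.38 ± 0.11 at 72 h, and for M36419_s_at it was 0.35 ± 0.14 and 0.29 ± 0.13. The Grik1 change for 72SD was 0.390 ± 0.135 within cohort 1 (adjusted p = 0.445) and 0.019 ± 0.123 within cohort 2. For 24SD it was 0.116 ± 0.135 within cohort 1 and 0.210 ± 0.138 within cohort 2.

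Gria3, a subunit that pairs mostly with the Gria2 product, was measured by X54656_at and M36420_s_at. In cohort 2, X54656_at signal was 1151.9, 1391 and 1529.6 in 24SD, 1080, 1236.4 and 1511.6 in 72SD and 806.7, 1144.8 and 1440.2 in HC animals. In cohort 1 it was 636.4, 990.1 and 1515.4 in 24SD, 707, 1021.2 and 1407.1 in 72SD, and 619.3, 900.1, 954.4, 984.8 and 1009.3 in HC animals. The groups overlapped, although 31 of 36 SD animals were above the HC mean of their cohort. The log2 change of X54656_at was 0.19 ± 0.09 for 24SD (adjusted p = 0.323) and 0.19 ± 0.08 for 72SD (adjusted p = 0.625). Without HC animal 2 of cohort 1, the lowest HC value, the changes were 0.15 and 0.16 and the unadjusted p-values 0.108 and 0.0636. M36420_s_at, the brighter Gria3 probe set, gave 0.04 ± 0.09 for 24SD and 0.10 ± 0.09 for 72SD.

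Gria4, an AMPA receptor subunit best known from interneurons and early development, had 3 dim probe sets that disagreed. S94371_at signal in cohort 2 was 156.8, 249.45 and 295.9 in 24SD, 156.1, 212.6 and 339 in 72SD and 122.1, 198.95 and 266.5 in HC animals. In cohort 1 it was 116.2, 145.9 and 217.4 in 24SD, 103.5, 177.45 and 285.7 in 72SD, and 90.8, 102.5, 122.7, 159.1 and 168 in HC animals. The ranges overlapped, and 28 of 36 SD animals were above the HC mean of their cohort. Its log2 change was 0.29 ± 0.13 for 24SD (adjusted p = 0.268) and 0.25 ± 0.12 for 72SD (adjusted p = 0.663). The 24SD changes of the other Gria4 probe sets were 0.11 ± 0.18 for S94371_g_at, built on the same sequence record, and -0.08 ± 0.10 for M36421_s_at. The within-group correlations among the 3 Gria4 probe sets were -0.181, 0.177 and 0.212 over 69 arrays.

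**Figure D3:**
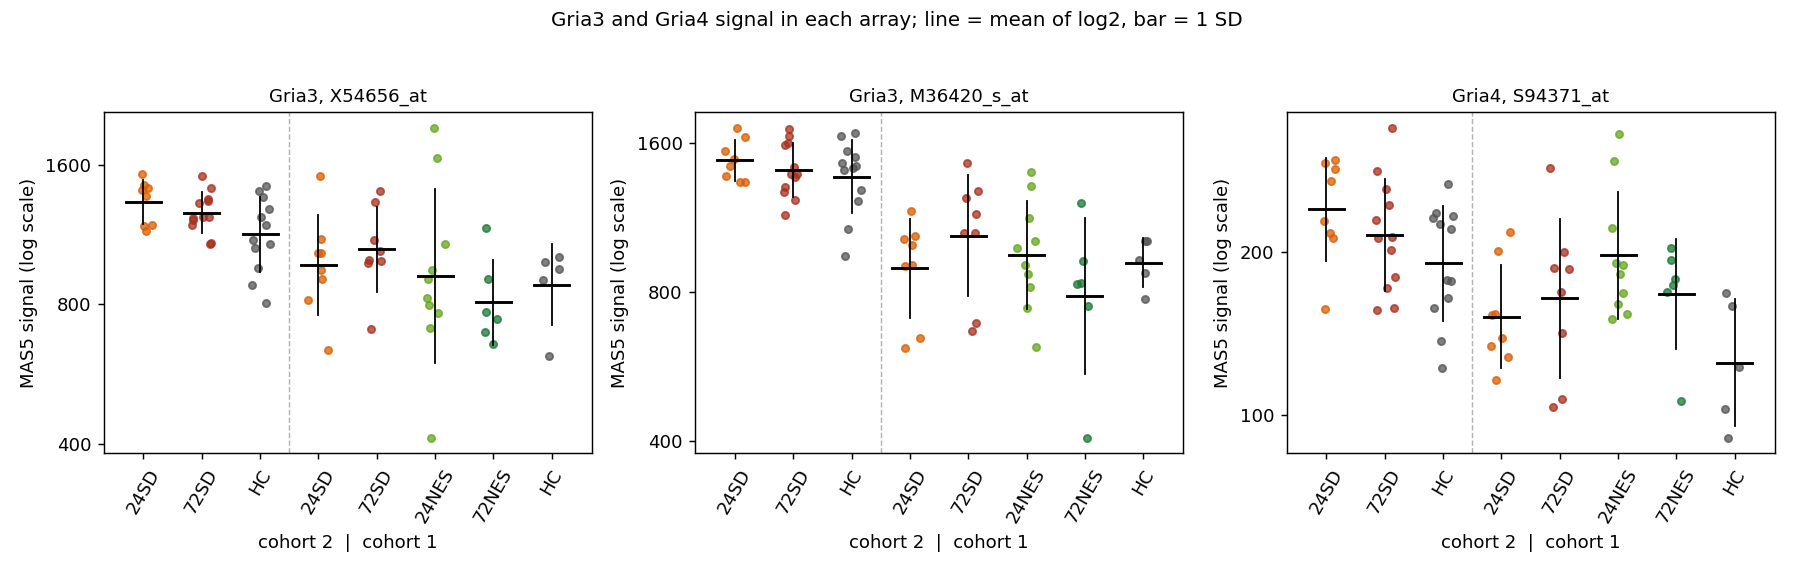
MAS5 signal of the Gria3 probe sets X54656_at and M36420_s_at and of the Gria4 probe set S94371_at in each animal (log scale), laid out by group with cohort 2 left of cohort 1 in each panel; lines are means of log2 signal and bars 1 SD. Groups overlap within each cohort, and the Gria3 signals of cohort 2 are mostly above those of cohort 1.

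Among kainate receptor genes, no probe set met even an unadjusted p under 0.05 for SD over both cohorts in the limma fit. In the standardized analysis of variance of the study's methods, with values over 2 SD removed, Grik5 had an unadjusted p of 0.0398, Gria1 S56679_s_at 0.0397 and Gria3 X54656_at 0.0449, as 18.2% of all probe sets were under 0.05, and none passed after adjustment (adjusted p = 0.25 to 0.263). Without that removal the p-values were 0.736, 0.359 and 0.0349, with 10.6% of all probe sets under 0.05. The paper, which first filtered probe sets on detection and annotation, lists Grik5 as a transient decrease. It reports Gria2 as lower with SD in mRNA and, in other animals, in protein. With the removal but no such filter, Gria2 M38061_at had an unadjusted p of 0.145 and M36419_s_at 0.525 in the analysis of variance. Grik1 and Grik2, which encode channel-forming subunits, had 24SD log2 changes of 0.14 ± 0.10 (M83561_s_at) and 0.09 ± 0.12 (Z11548_at) and 72SD changes of 0.16 ± 0.10 and 0.11 ± 0.11. Grik3, the channel-forming subunit of lowest glutamate affinity, had -0.27 ± 0.18 and -0.22 ± 0.17 (AF027331_at), with a larger SE than Grik1, Grik2 or Grik5, and the HC animals of cohort 1 included 1 at 656.7 against 179.6 to 217.4 in the other 4. For the high-affinity genes, 24SD and 72SD changes over both cohorts were 0.01 ± 0.11 and -0.04 ± 0.10 for Grik4 (U08257_at) and -0.03 ± 0.10 and -0.01 ± 0.09 for Grik5 (Z11581_at), and the estimates within the cohorts had opposite signs. Grik5 changes were 0.10 ± 0.13 for 24SD and 0.10 ± 0.12 for 72SD within cohort 2, against -0.26 ± 0.14 (adjusted p = 0.519) and -0.24 ± 0.14 (adjusted p = 0.697) within cohort 1. Below the HC mean of their cohort were 3 of 8 24SD and 3 of 12 72SD animals in cohort 2, and 8 of 8 and 7 of 8 in cohort 1. The Grik5 change in cohort 2 less that in cohort 1 was 0.36 ± 0.20 at 24 h (adjusted p = 0.774) and 0.34 ± 0.19 at 72 h (adjusted p = 0.716). In cohort 2, Grik4 U08257_at was 456.3, 710.65 and 825.5 in 24SD animals and 541.4, 676.75 and 1622.1 in HC animals. In cohort 1 it was 1707.9, 1825.5 and 2032.5 in 24SD animals and 1253.5, 1353.4, 1553.2, 1553.7 and 1727.7 in HC animals, which overlapped only slightly, and the change there was 0.31 ± 0.09 (adjusted p = 0.224). The 24SD change in cohort 2 less that in cohort 1 was -0.49 ± 0.22 (adjusted p = 0.629). The other Grik4 probe set, X59996mRNA_s_at, had changes over both cohorts of 0.02 ± 0.21 for 24SD and -0.01 ± 0.20 for 72SD. Within cohort 1 its 24SD change was 0.14 ± 0.16 (adjusted p = 0.792).

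NES addressed which changes also followed exposure to the chamber when sleep was not prevented. If NES animals were untrained, training and NES cannot be told apart in these comparisons. Of the 16 probe sets, 0 passed at adjusted p under 0.05 for 24NES (0.0114% of all did), for 72NES (0%) and in the NES F-test (0%). At an unadjusted p under 0.05 the counts were 3 of 16 for 24NES (10.7% of all), 1 of 16 for 72NES (5.03%) and 4 of 16 in the F-test (8.63%). The 3 for 24NES were Gria2 M38061_at, Gria4 S94371_at and Grik4 U08257_at, and the 1 for 72NES was Gria2 M36419_s_at. M38061_at had 4345.2, 5986.6 and 7124.1 in 24NES and 3843.4, 4990.5 and 6398.8 in 72NES animals, against the HC values of cohort 1 given above, and 14 of 16 NES animals were above the HC mean. Its changes were 0.35 ± 0.12 for 24NES (adjusted p = 0.273) and 0.19 ± 0.14 for 72NES (adjusted p = 0.968). M36419_s_at had 2265, 2961.6 and 3296.4 in 72NES animals, all 6 below the lowest HC value of 3647.8, a separation found in 1.01% of all probe sets. Its changes were -0.13 ± 0.15 for 24NES (adjusted p = 0.804) and -0.49 ± 0.17 for 72NES (adjusted p = 0.858). These directions of the 2 Gria2 probe sets were those of SD in cohort 1, and the 5 HC arrays are shared by both comparisons.

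S94371_at of Gria4 had 150.6, 185.75 and 330.8 in 24NES animals and 106.2, 176.3 and 203 in 72NES animals, and the HC values of cohort 1 reached 168. All 10 24NES animals were above the HC mean although the ranges overlapped. The log2 change was 0.66 ± 0.20 for 24NES (adjusted p = 0.222) and 0.42 ± 0.22 for 72NES (adjusted p = 0.968). Neither other Gria4 probe set met the unadjusted threshold for 24NES or 72NES. Mean log2 signal of S94371_g_at was 7.272 in 24NES, 7.542 in 72NES and 7.428 in HC animals of cohort 1. Its 24NES arrays ran down to 23.6 (SD of log2 signal 1.26), and its median signals were 199.6, 193.05 and 159.2 in the same order. Mean log2 signal of M36421_s_at was 7.861, 7.501 and 7.785 in that order. U08257_at of Grik4 had a 24NES change of 0.24 ± 0.11 (adjusted p = 0.429), and without HC animal 2 it was 0.18, with an unadjusted p of 0.133.

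SD and NES at the same duration were compared in cohort 1. For 24SD against 24NES, 0 of 16 probe sets passed at adjusted p under 0.05 (0.0114% of all) and 1 met the unadjusted threshold (5.97% of all), Gria4 S94371_at, at -0.38 ± 0.18. It missed that threshold with quantile normalization (unadjusted p = 0.0687), median centring (0.0651) and eBayes with trend (0.0581), and without 72NES animal 71 (0.0506). Mean log2 signals in 24SD and 24NES animals were 7.457 and 7.272 for S94371_g_at and 7.845 and 7.861 for M36421_s_at. For S94371_g_at, whose 24NES arrays ran down to 23.6, the median signals of 184.05 and 199.6 had the opposite order. For 72SD against 72NES, 0 passed at adjusted p under 0.05 (0% of all) and 2 met the unadjusted threshold (6.69% of all), Gria4 M36421_s_at at 0.42 ± 0.14 and Gria1 S56679_s_at at 0.33 ± 0.15. M36421_s_at signal was 186.5, 250.65 and 302.3 in 72SD and 130.8, 190.2 and 263 in 72NES animals, which overlapped. Neither other Gria4 probe set met that threshold. Mean log2 signals in 72SD and 72NES animals were 7.372 and 7.542 for S94371_g_at and 7.36 and 7.386 for S94371_at. Median signals were 213.2 and 193.05 for S94371_g_at, whose 72SD arrays ran down to 39.5, and 177.45 and 176.3 for S94371_at. S56679_s_at signal was 1453.4, 1509.7 and 2413.8 in 72SD and 801.8, 1418.9 and 1805.9 in 72NES animals. Its difference was 0.18, with an unadjusted p of 0.198, without 72NES animal 71. The 95% interval of the difference lay inside ±0.5 for 12 of 16 probe sets at 24 h and 8 of 16 at 72 h, so larger differences remained possible for the rest, and a missed threshold does not show that SD and NES acted alike.

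The difference that did pass the test was that between the cohorts, whose scanner background also differed in the account of the methods. Over the HC and SD arrays, 14 of 16 probe sets differed between cohort 2 and cohort 1 at adjusted p under 0.05, where 50.4% of all probe sets did, 7 of them higher and 7 lower in cohort 2. Both Grik4 probe sets were the furthest apart. U08257_at signal was 456.3, 677.1 and 1622.1 (lowest, median, highest) in cohort 2 and 1253.5, 1727.7 and 2032.5 in the HC and SD animals of cohort 1. The log2 difference was -1.23 ± 0.09 (adjusted p = 2.03e-16), which is 2.34-fold lower in cohort 2. X59996mRNA_s_at had 54.1, 187.8 and 589 in cohort 2 and 464.9, 668 and 934.5 in cohort 1, a difference of -1.80 ± 0.17 (adjusted p = 1.9e-12), or 3.47-fold lower. For both Grik4 probe sets the cohorts did not overlap among 24SD animals, as in 6.56% of all probe sets, or among 72SD animals, as in 3.68%. Gria3 M36420_s_at and Grik1 did not overlap among 24SD animals either. Among HC animals the cohorts overlapped for both Grik4 probe sets through animal 17 of cohort 2 (1622.1 for U08257_at and 589 for X59996mRNA_s_at). The next highest in cohort 2, animal 6 (1141.5 and 469.8), was below every HC animal of cohort 1. No member separated all HC and SD animals of cohort 2 from those of cohort 1, as 0.16% of all probe sets did.

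**Figure D4:**
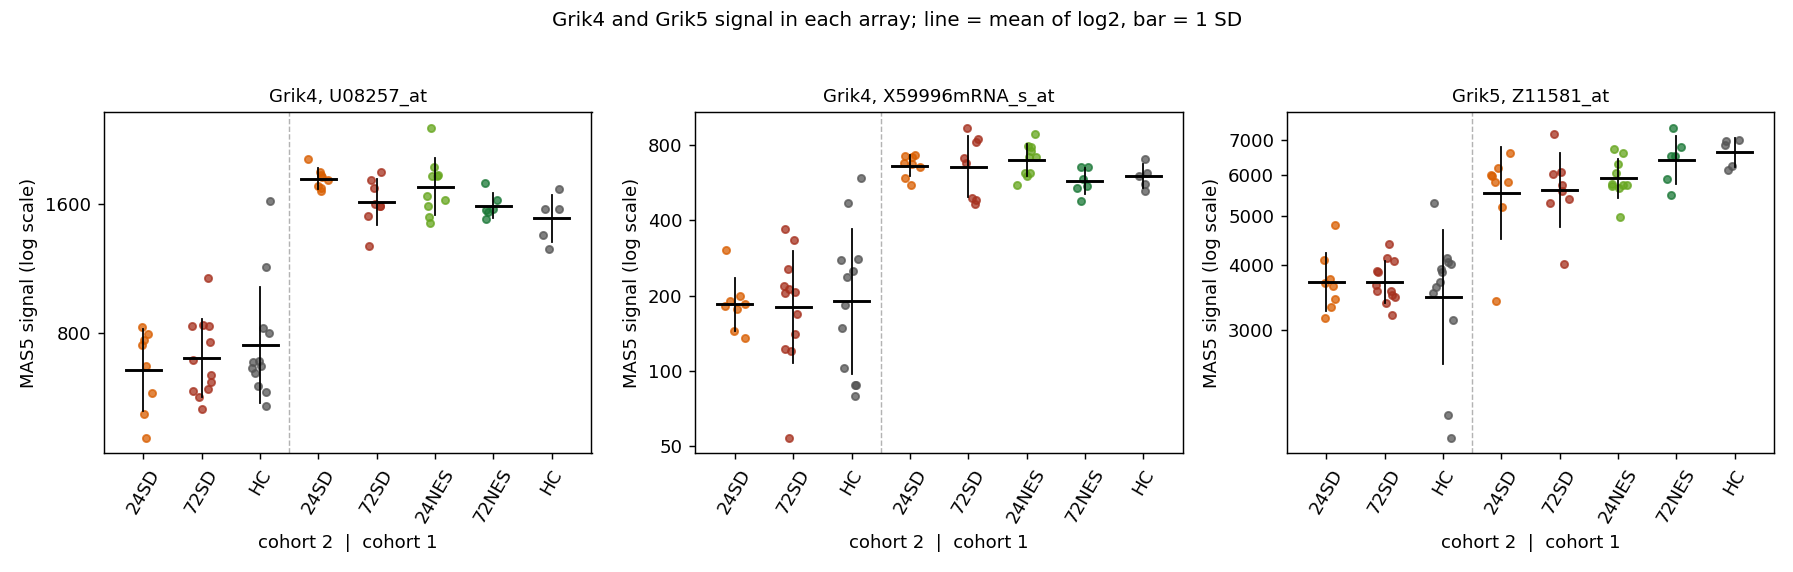
MAS5 signal of the 2 Grik4 probe sets and of Grik5 in each animal (log scale), with cohort 2 left of cohort 1; lines are means of log2 signal and bars 1 SD. U08257_at has a median of 677.1 in cohort 2 and 1727.7 in the HC and SD animals of cohort 1, and the NES animals of cohort 1 lie with the other cohort 1 groups.

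In the NES animals of cohort 1, Grik4 U08257_at was 1437.8, 1755.1 and 2400.6 in 24NES and 1471.5, 1548.4 and 1784.6 in 72NES animals. In the order of the 8 groups, the neighbours that differed beyond 1 SD of each were the lowest cohort 1 group and the highest cohort 2 group, for both Grik4 probe sets and for Grik5, and no other neighbours did in any of the 16 probe sets. Grik5, the other gene of the high-affinity class, had 1849.7, 3675 and 5285.5 in cohort 2 and 3406.1, 5990.9 and 7202.3 in the HC and SD animals of cohort 1, 1.61-fold lower in cohort 2 (-0.68 ± 0.08, adjusted p = 4.31e-10). Among HC animals alone the cohorts did not overlap for Grik5, Grik1 or Gria2 M38061_at, as in 3.99% of all probe sets.

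Bok, a gene known from mouse as enriched in CA3, was looked up after the Grik4 values were seen. Both of its probe sets were lower in cohort 2, with log2 differences of -0.52 ± 0.06 (AF027954_at) and -0.48 ± 0.05 (AF027954_g_at) and adjusted p of 2.6e-10 and 7.8e-12. Their summed signal was 3523 to 6375 (median 4752) in cohort 2 and 4912 to 7982 (median 6677) in the HC and SD animals of cohort 1. HC animal 17 of cohort 2, which had the highest Grik4 signals of its cohort, also had its highest Bok signal, 6374.9, whereas HC animal 6 had 4352.4. Of the 24NES animals of cohort 1, animal 58 had the highest Bok sum, 9377.8, and the highest U08257_at signal, 2400.6. Animal 61 had the lowest Bok sum, 3913.6, which is within the cohort 2 range, with U08257_at at 1945. Where 50.4% of all probe sets differed between the cohorts, 1 of 3 dentate granule cell probe sets was higher and 1 lower in cohort 2, and their summed signal was 5051 to 10520 in cohort 2 and 5311 to 8535 in cohort 1. These dentate probe sets measured only Neurod1 and Calb1, 2 of the 5 listed genes. The cohort 1 ranges of summed signal given here are of its HC and SD animals. Of 8 microglia probe sets, 5 were higher and 2 lower in cohort 2, with summed signals of 6619 to 9837 in cohort 2 and 5653 to 7238 in cohort 1. Of 12 astrocyte probe sets, 6 were higher and 2 lower (49300 to 70180 in cohort 2 and 46700 to 60360 in cohort 1). Of 5 pyramidal neuron probe sets, 1 was higher and 3 lower (34050 to 53370 in cohort 2 and 43070 to 55530 in cohort 1). The part of neighbouring tissue or of cell makeup in the Grik4 difference was not tested.

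The other kainate genes were split: Grik1 was higher in cohort 2 (0.65 ± 0.08, adjusted p = 5.28e-09) and Grik3 lower (-0.48 ± 0.15, adjusted p = 0.0048), and Grik2 did not pass. Grik1 signal was 287, 428.85 and 659.6 in cohort 2 and 195.2, 275.1 and 425.9 in the HC and SD animals of cohort 1. The AMPA genes were split as well. All 3 Gria1 probe sets were lower in cohort 2 (-0.14 to -0.41). Both Gria2 (0.19 and 0.22) and both Gria3 probe sets (0.35 for X54656_at and 0.58 for M36420_s_at) were higher. For Gria4, S94371_at (0.54) and S94371_g_at (0.39) were higher and M36421_s_at did not pass.

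**Figure D5:**
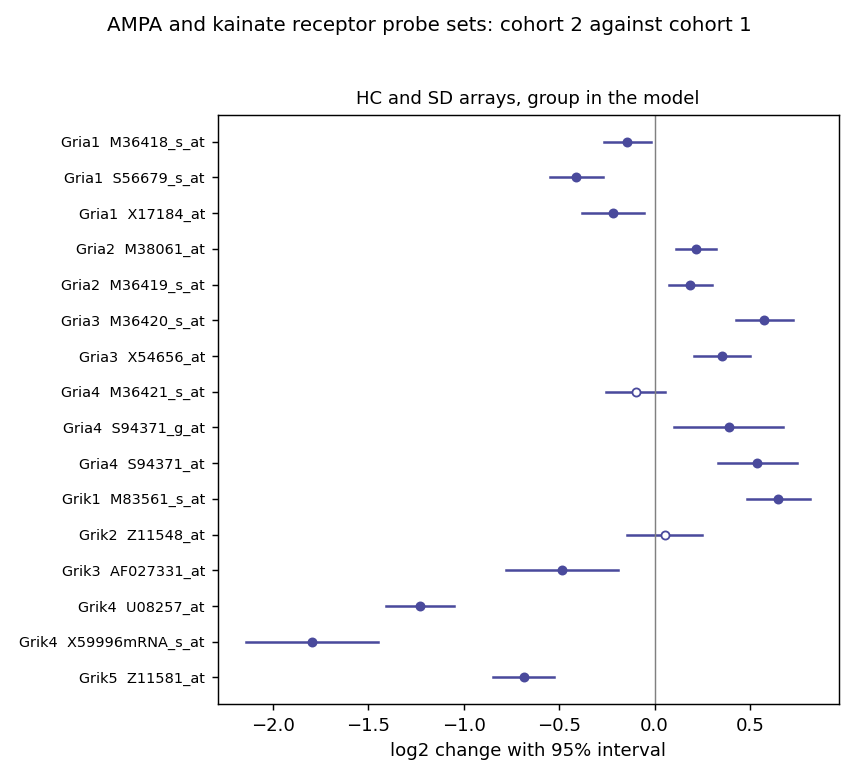
Log2 difference of cohort 2 against cohort 1 in the HC and SD animals, with its 95% interval, for each of the 16 probe sets; filled circles have an adjusted p under 0.05. The 14 filled circles fall on both sides of 0, from -1.80 for Grik4 X59996mRNA_s_at to 0.65 for Grik1.

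Genes of the same pathway were followed in lists of receptor partners. None of their probe sets passed at adjusted p under 0.05 in any SD, NES, SD against NES or interaction comparison. Of the auxiliary subunits, 1 of 13 genes was on the array, Cnih2, a cornichon that slows AMPA receptor gating, with log2 changes of 0.10 ± 0.06 for 24SD and 0.07 ± 0.06 for 72SD. The binding and trafficking proteins had 26 probe sets of 16 genes and a median 24SD change of -0.026. Their smallest F-test p-values belonged to Ap2b1, a subunit of the endocytic adaptor AP2 (-0.36 ± 0.11 for 24SD, adjusted p = 0.0999), Dlg4, the postsynaptic scaffold PSD-95 (M96853_at, 0.27 ± 0.14, adjusted p = 0.349), and Grip2, a scaffold that binds Gria2 (0.13 ± 0.06, adjusted p = 0.279). The kinases and phosphatases had 15 probe sets of 9 genes and a median of 0.0456, led by 2 probe sets of Prkcb, a protein kinase C (0.24 ± 0.09 and 0.13 ± 0.05, adjusted p = 0.179 and 0.177), and by Ppp1ca, a catalytic subunit of protein phosphatase 1 (0.16 ± 0.07, adjusted p = 0.244). Of the 3 RNA editing enzymes, Adarb1, which edits the Gria2 transcript, had -0.08 ± 0.18 and Adar -0.23 ± 0.09 (adjusted p = 0.197). Grid1, a delta glutamate receptor, had -0.19 ± 0.09 (adjusted p = 0.311). Between the cohorts, where 50.4% of all probe sets differed, 6 of 26 binding and trafficking probe sets were higher and 10 lower in cohort 2, and 5 of 15 kinase and phosphatase probe sets were higher and 6 lower.

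The genes whose signals varied most like each subunit were taken over 69 arrays, after each group-by-cohort mean was removed, from the brighter 50% of probe sets with 1 gene name. These correlations are across arrays that share scaling and RNA quality and have no test. Gria1 (M36418_s_at) was closest to Wasl (Pearson r of 0.762), Dlg2 (0.753) and Scn8a (0.737), and Gria2 (M38061_at) to Ptprz1 (0.771), Ppp3cb (0.767) and Cltc (0.755). Gria3 (M36420_s_at) was closest to Slc1a1 (0.81), Rasgrp1 (0.725) and Gad2 (0.719). Grik5 was closest to Slc12a5 (0.706), Scn8a (0.705) and Mgat1 (0.657), and Grik4 (U08257_at) to Gyg1 (0.611), Cacna1c (0.604) and Ucp2 (0.602). For the dimmer Gria4, Grik1, Grik2 and Grik3 the highest r was 0.563 with St13, 0.608 with Ssbp2, 0.61 with Jup and 0.428 with Ctsd. Among the subunits, Gria2 M36419_s_at varied with Gria3 M36420_s_at (0.714) and Gria1 M36418_s_at (0.658), more than with the other Gria2 probe set, and the 2 Grik4 probe sets varied together (0.653).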

How the data were processed

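RNA from 69 CA1 samples was hybridized to Affymetrix rat genome arrays (RG_U34 set A). The deposited intensity values are MAS5 signals that the authors scaled to a common target per array, on a linear scale (MAS5 version not given in the sources used here). The table held 8799 probe sets. The 59 controls were left out, signals under 1 were set to 1, and log2 was taken. Genes come from the platform annotation, with no genome build. Tests used limma 3.58.1 in R 4.3.3 (lmFit, eBayes), checked on simulated data, with Benjamini-Hochberg adjustment over 8740 probe sets. SD against HC used 53 arrays with cohort as a term, the interaction added group by cohort, NES against HC used 21 arrays, and SD against NES the 37 arrays of cohort 1. Intervals are 95%. Animals are the replicates, and their number limits the precision. Detection calls and scanner files are not used here. Every subunit probe set is named. From each partner list the 3 probe sets with the smallest F-test p are named. The members and lists were chosen with earlier results of these data known. Alternatives were quantile normalization, median centring, a floor of 50, a filter on dim and duplicate probe sets, eBayes with trend or robust, cohort left out or each cohort alone, the standardized analysis of variance in the study's methods, and single arrays left out.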

Additional observations from a re-analysis of the deposited data

Results flagged for a closer look

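In groups of 5 to 10 animals, 5 of 96 combinations of a subunit probe set and a group had 1 array set far from the rest. Chance flags about 1 in 20. Gria1 X17184_at was 421.5 in 72SD animal 39 of cohort 1, and 682.5 to 838.1 in the others. Gria3 X54656_at was 619.3 in HC animal 2 of cohort 1, and 900.1 to 1009.3 in the others. Gria4 S94371_at was 106.2 in 72NES animal 73, and 168.8 to 203 in the others. Grik3 AF027331_at was 656.7 in HC animal 3 of cohort 1, and 179.6 to 217.4 in the others. Grik5 Z11581_at was 3406.1 in 24SD animal 23 of cohort 1, and 5196.3 to 6611.1 in the others.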

How the results depend on the processing

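Under every alternative run, no subunit probe set passed at adjusted p under 0.05 in any SD, NES, interaction or SD against NES comparison. The count for cohort 2 against cohort 1, 14 in the report, was 13 with quantile normalization and with median centring. It was 12 to 14 when HC animals 1 to 5 or 17, or 24SD animal 30 or 32, were left out, and 5 of the 6 genes left by the filter on dim and duplicate probe sets. Of 31 single changes with an unadjusted p under 0.05, 400 values were computed under alternatives, of which 357 kept their direction and side of that threshold, 42 kept only the direction and 1 reversed: Gria2 M38061_at for 24SD was -0.02209 in cohort 2 alone. The 31 include the 14 differences between the cohorts, of which only that of Gria1 M36418_s_at lost the threshold, with median centring. Most of the values that lost it or reversed belonged to the 5 SD changes against HC, so the pooled count overstates how stable those were. Leaving cohort out of the model cost all 5 SD changes the threshold, with 24SD values of 0.085 for Gria2 M38061_at, 0.113 for Gria3 X54656_at and 0.182 for Gria4 S94371_at, and cohort 1 alone cost 4 of 5. Leaving out HC animal 2 cost 7 changes the threshold. Leaving out the animals with high GAPDH ratios (24SD 30, 72NES 71), HC 17 and 24SD 32 was chosen after seeing the data, as was leaving out HC arrays in the SD comparisons. No paired analysis was possible because the animals carry separate numbers. Dim probe sets limit Gria4, Grik1 and Grik3.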
